A study of Homo sapiens with 8 samples.

Results

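Gene expression was compared between HGC27 cells that overexpressed the p53 mutant R273H and HGC27 cells that overexpressed the p53 mutant R175H. The comparison took the 4 libraries with these labels, 2 of each mutant, out of 8 libraries in the series, and all genes that passed a filter on low counts, 12932 of 25435 in the table. The cells are an established line from a human gastric carcinoma, labelled here as without p53 and grown in alpha-MEM, and each group received 1 overexpressed protein with no other agent named. The remaining groups, with 2 libraries each, overexpressed the mutant R248Q or GFP, the control, and they enter below only to show where their levels lie. The series title speaks of a knockout and a knockdown, whereas the labels of all 8 samples name an overexpressed protein, and the groups follow the labels. They number the libraries without saying that these came from separate cultures or clones, so a p-value measures only the spread between libraries. The groups are compared as labelled and not at a matched level of the protein.

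The protein p53 is a transcription factor, and most of its cancer mutations fall in the domain that binds DNA. R273 and R248 are arginines that touch DNA, and mutants at these positions are called contact mutants. R175 lies near the zinc-binding site that holds the domain in shape, and R175H is the textbook conformational mutant, a partly unfolded protein. Several of the gene lists described below belong to responses by which cells adapt. HIF is a pair of subunits that turns on glycolysis, angiogenesis and oxygen-sensing genes when its alpha subunit escapes hydroxylation by the EGLN enzymes. ATF4 turns on amino acid synthesis and import under stress, SREBP turns on sterol synthesis, and HSF1 turns on heat shock chaperones.

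The libraries held 6800463 and 9017777 counts in R175H and 11287251 and 11788035 in R273H, so the R175H libraries were the shallower pair. Levels are in CPM, read counts scaled to a common library size with TMM factors, and differences are log2 of R273H over R175H with their standard error (SE), where a negative value means lower in R273H (n = 2 libraries per group throughout). Markers of epithelial and gastric cells were near 0: EPCAM and CDH1 had 6 and 3 counts over the 4 libraries, KRT18, TFF1, TFF2, GKN1, GKN2, PGC and LIPF had 0, and summed levels in these libraries were 1.46 to 3.42 CPM for 8 epithelial markers and 4.82 to 7.87 CPM for 10 gastric ones. Nearly all of the gastric sum was CDX2, an intestinal homeobox factor, at 5.45 and 4.59 CPM in R175H and 5.68 and 7.78 CPM in R273H (0.44 ± 0.21, not called). KRT8, described below, was the 1 epithelial marker that passed the filter. VIM, the mesenchymal intermediate filament, was at 5725 and 5609 CPM in R175H and 5057 and 5037 CPM in R273H. The 8 blood markers summed to 13.6 to 16.8 CPM, mostly from HBA1, with CD3E and HBB at 0, and the 6 endothelial markers to 0.257 to 1.51 CPM, with CDH5, VWF and KDR at 0. Markers of neural or HEK293 cells summed to 172 to 207 CPM, of which TUBB3, a tubulin, made up most, at 167 and 162 CPM in R175H and 191 and 199 CPM in R273H (0.24 ± 0.05); ELAVL4 and STMN2 were at 0. The part of these markers in the results was not tested.

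At a Benjamini-Hochberg adjusted p below 0.05 in edgeR's quasi-likelihood test, 809 genes (6.26% of those tested) were higher in R273H and 852 (6.59%) were lower. Most differences were small, with a median log2 difference of 0.22 among the higher and -0.31 among the lower genes. Only 12 of the higher and 48 of the lower genes differed at least 2-fold, so the large differences lay mainly on the side where R175H was high. The counts of each list below are to be read against the shares of 6.26% and 6.59%. All lists were chosen with earlier results of these data known, so their counts are a description and no independent test. Of the lists examined, those of the low-oxygen response and the amino acid stress response held the most lower genes, and those of heat shock chaperones and mitosis the most higher genes. DESeq2 called 277 and 301 genes, limma-voom 786 and 842, and a fit that also held the GFP libraries 186 and 294.

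**Figure D1:**
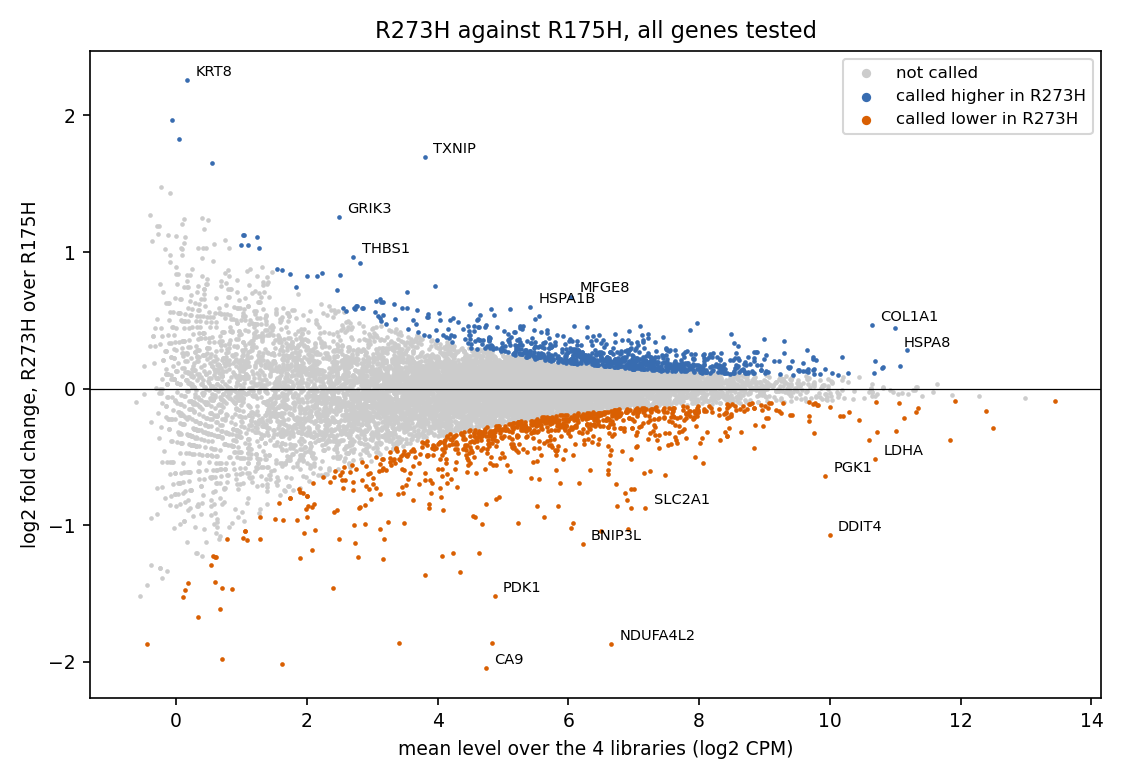
Each point is 1 of the 12932 genes tested, with its mean level over the 4 libraries on the x axis (log2 CPM) and its log2 difference, R273H over R175H, on the y axis; blue genes were called higher in R273H, orange genes lower, and grey genes were not called. CA9, NDUFA4L2 and PDK1 lie at the bottom, and TXNIP has the largest rise among genes above 2 on the x axis.

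Genes of the low-oxygen response were lower in R273H almost without exception. Of 53 genes in a list of HIF targets and glycolytic enzymes 51 were tested, and 46 were lower, 0 were higher and 5 were not called, with a median log2 difference of -0.66 against 0.00 over all genes tested. In 48 of the 51 both R273H libraries lay below both R175H libraries, which was so for 26.3% of all genes tested. Because the list was chosen with earlier results of these data known, these figures describe its members only. The count was 42 with DESeq2, 43 with the GFP libraries in the fit and between 44 and 46 without any 1 library, and 39 of the 46 genes were called under every alternative with the same threshold.

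The largest falls included CA9, NDUFA4L2 and NDRG1. CA9, the cell surface carbonic anhydrase widely used as a hypoxia marker, was at 39.9 and 46.3 CPM in R175H and at 9.06 and 11.9 CPM in R273H, a log2 difference of -2.05 ± 0.11 (adjusted p = 2.39e-22). CA12, another carbonic anhydrase of the list, was not called. It was at 33.2 and 32.8 CPM in R175H and 35.7 and 34.6 CPM in R273H (0.09 ± 0.09). NDUFA4L2, a HIF target of the respiratory chain, was at 158 and 159 CPM in R175H and at 42.9 and 43.7 CPM in R273H (-1.87 ± 0.06, adjusted p = 1.09e-34). NDRG1, a stress-induced protein of differentiating cells, was at 44.5 and 45.3 CPM in R175H against 11.5 and 13.2 CPM (-1.86 ± 0.10). CA9, NDUFA4L2 and NDRG1 were chosen for large differences without overlap, so the distance between the 2 groups follows from the choice. In each of the 3 the replicates were close, and the R248Q and GFP libraries lay beside those of R273H. For NDUFA4L2 they were at 42.3, 44.1, 50.8 and 41.2 CPM. MIR210HG, the host transcript of the hypoxia-induced microRNA miR-210, was at 16.7 and 16.6 CPM in R175H and 4.35 and 4.79 CPM in R273H (-1.86 ± 0.16). RIMKLA, which joins glutamate to N-acetylaspartate, was a low gene, at 4.86 and 5.04 against 1.15 and 1.28 CPM (-2.01 ± 0.31). PDK1, the kinase that keeps pyruvate out of mitochondria, was at 44.1 and 42.8 CPM in R175H and 14.8 and 15.5 CPM in R273H (-1.52 ± 0.10, adjusted p = 4.36e-19), and BNIP3L, a receptor for the removal of mitochondria, was at 100.5 and 104 against 48.2 and 44.9 CPM (-1.14 ± 0.06).

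Transcripts for glucose uptake and for most steps of glycolysis were lower. SLC2A1, the main glucose transporter, was at 188 and 187 CPM in R175H and 102 and 103 CPM in R273H (-0.87 ± 0.05, adjusted p = 3.15e-22). HK2, the hexokinase of tumour cells, was at 216 and 219 against 140.04 and 141 CPM (-0.63 ± 0.05). PFKFB4, which makes the activator of phosphofructokinase, was at 34.9 and 34.3 against 16.3 and 13.8 CPM (-1.20 ± 0.11). None of these groups overlapped. Further down the pathway PGK1, which makes ATP, was at 1186 and 1181 CPM in R175H and 748 and 772 CPM in R273H (-0.64 ± 0.03), LDHA, which turns pyruvate into lactate, at 1874 and 2007 against 1354 and 1361 CPM (-0.52 ± 0.03), and ENO1 at 6182 and 6514 against 5169 and 5220 CPM (-0.29 ± 0.03). ALDOC, the brain-type aldolase, differed by -1.03 ± 0.05 and the muscle-type ALDOA by -0.31 ± 0.03. SLC16A3, the lactate exporter, was not called, with a difference of 0.13 ± 0.20 over 234 counts in the 4 libraries.

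**Figure D2:**
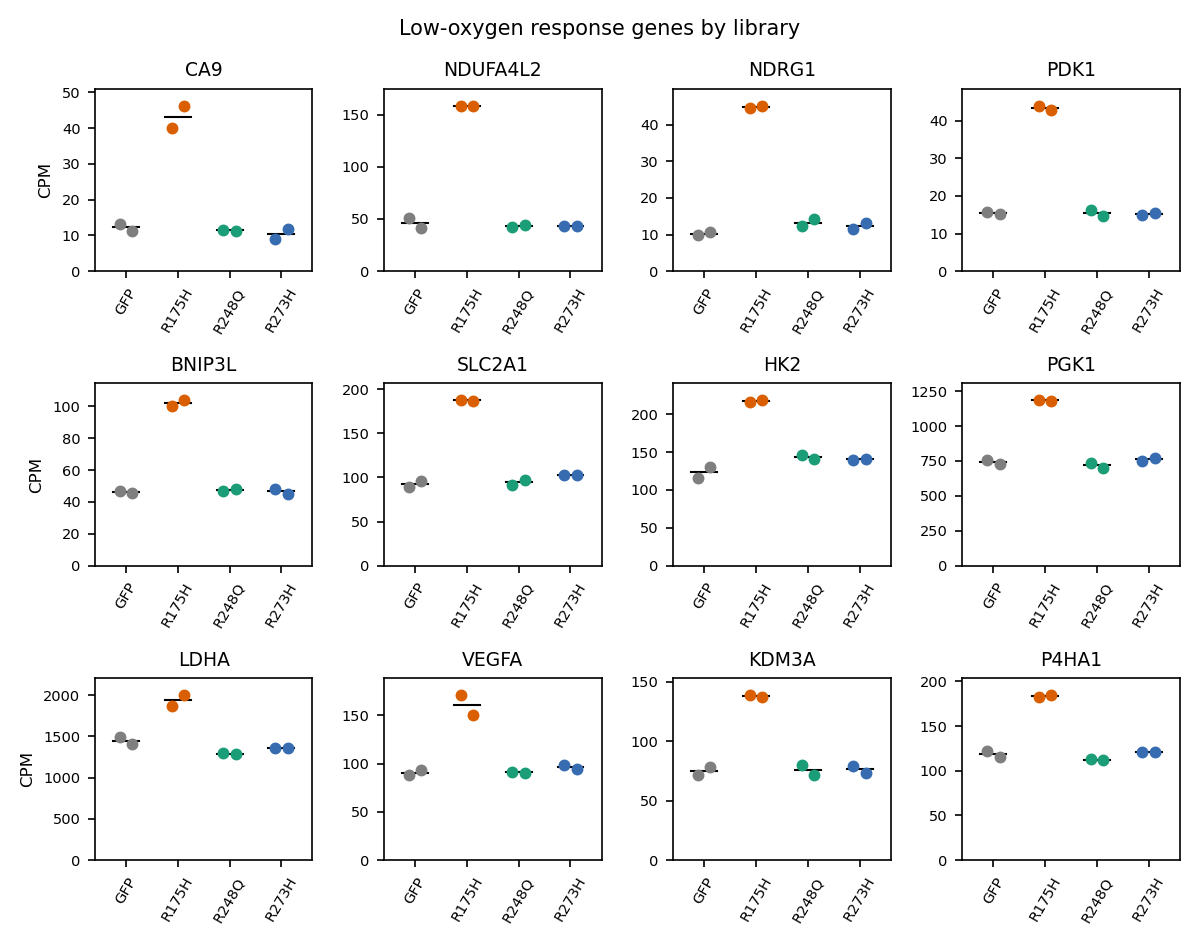
Level (CPM, from 0) of 12 genes of the low-oxygen response in each of the 8 libraries; points are libraries and bars the mean of the 2. In every panel both R175H libraries stand above the other 6, and the GFP, R248Q and R273H libraries lie near each other.

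Secreted factors and matrix enzymes of the list behaved in the same way. VEGFA, the angiogenic growth factor, was at 172 and 150.5 CPM in R175H and 98.8 and 94.1 CPM in R273H (-0.73 ± 0.05). ADM, a vasodilator peptide, differed by -0.99 ± 0.10, and the collagen prolyl hydroxylase P4HA1 by -0.60 ± 0.05. LOX and LOXL2, which cross-link collagen, differed by -0.54 ± 0.06 and -0.52 ± 0.05. The histone demethylases KDM3A and KDM4B differed by -0.86 ± 0.06 and -0.73 ± 0.05.

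The HIF subunits themselves differed little. HIF1A transcript was at 135 and 122 CPM in R175H and 130.4 and 128 CPM in R273H, with overlapping libraries (0.01 ± 0.05, adjusted p = 0.927). EPAS1, which encodes HIF-2 alpha, was under the filter with 35 counts over the 4 libraries. ARNT, the shared beta subunit, was at 80.6 and 79.9 against 68.5 and 70.3 CPM (-0.21 ± 0.06). HIF1AN, which hydroxylates HIF in its activation domain, differed by -0.21 ± 0.05, and the calls of both were lost without R175H replicate 2, with DESeq2 and in the fit of all 8 libraries. VHL, which marks hydroxylated HIF for destruction, was not called (-0.12 ± 0.06, adjusted p = 0.185). The hydroxylases that are HIF targets as well stood out: EGLN1 was at 159 and 145 CPM in R175H and 87.0 and 84.9 CPM in R273H (-0.82 ± 0.05), and EGLN3 at 37.4 and 40.4 against 24.3 and 20.9 CPM (-0.79 ± 0.09). The sum over all genes of the HIF list, those under the filter included, was 18300 and 19100 CPM in R175H and 14000 and 14100 CPM in R273H. It was 13500 CPM in both R248Q libraries and 14900 and 14000 CPM in GFP.

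The core of the HIF binding site, ACGTG or GCGTG read on either strand, was looked for in the promoters of these genes. It occurs in the 250 bases before the start of 31 of the 39 called members with a promoter in the RefSeq table (79.5%), against 58.2% of the 9555 tested genes with one. The 100 bases before the start are shown for 4 genes whose levels are given above, 5′ to 3′ on the gene's strand in GRCh38.p14 from RefSeq, with the matches in capitals. The match is to letters only, and no binding was measured. The list is one of known HIF targets, and no share was computed for its members that were not called. The excess over all genes therefore does not bear on the difference between R273H and R175H.
CA9, chr9:35673828-35673927, plus strand: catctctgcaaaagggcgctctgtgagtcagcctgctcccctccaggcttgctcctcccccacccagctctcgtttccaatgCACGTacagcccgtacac
ALDOC, chr17:28576896-28576995, minus strand: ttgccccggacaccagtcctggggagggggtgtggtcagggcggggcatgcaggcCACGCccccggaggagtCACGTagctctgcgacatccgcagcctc
LDHA, chr11:18394463-18394562, plus strand: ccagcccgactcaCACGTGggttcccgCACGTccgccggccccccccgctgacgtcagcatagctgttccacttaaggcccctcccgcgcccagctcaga
EGLN1, chr1:231422288-231422387, minus strand: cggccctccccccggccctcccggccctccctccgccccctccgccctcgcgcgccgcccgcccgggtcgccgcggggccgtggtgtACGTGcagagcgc
CA9 and EGLN1 have 1 match in this window, and ALDOC and LDHA have more; in LDHA the capitals of the first stretch read as a match on both strands.

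Genes of the ATF4 and amino acid stress response were also lower in R273H, by less. Of 38 tested 23 were lower and 0 higher, with a median of -0.21. VEGFA is 1 of the 23 and is counted in the HIF list as well. The count was 16 with DESeq2, 13 in the fit of all 8 libraries and 17 to 22 without any 1 library, and 13 genes were called under every alternative with the same threshold. DDIT4, an inhibitor of mTORC1 that answers to both ATF4 and HIF, was at 1381 and 1391 CPM in R175H and at 640.1 and 679 CPM in R273H (-1.07 ± 0.03, adjusted p = 1.81e-34). DDIT3, the factor CHOP, was at 21.96 and 20.1 against 11.81 and 12.3 CPM (-0.79 ± 0.13). TRIB3, a pseudokinase that feeds back on ATF4, was at 116 and 117 against 81.6 and 89.0 CPM (-0.45 ± 0.06). The libraries of the 2 groups did not overlap in these genes, and for DDIT4 and TRIB3 those of R248Q and GFP were lower still than R273H: DDIT4 was at 575 and 587 CPM in R248Q and 511 and 513 CPM in GFP, and TRIB3 at 68.1 and 69.0 CPM and at 67.8 and 69.7 CPM.

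The list also holds enzymes and transporters of amino acids. ASNS, asparagine synthetase, was at 380.2 and 388 CPM in R175H and 298 and 308 CPM in R273H (-0.34 ± 0.04), and SHMT2, the mitochondrial serine hydroxymethyltransferase, at 960 and 972 against 758 and 782 CPM (-0.33 ± 0.03). CTH, which makes cysteine, differed by -0.51 ± 0.09, and PCK2 by -0.36 ± 0.05. PSAT1 (-0.05 ± 0.03), PSPH (0.01 ± 0.07) and the transporters SLC7A5 (0.00 ± 0.03) and SLC1A5 (0.01 ± 0.04) were not called, and neither was ATF4 transcript itself (0.07 ± 0.04, adjusted p = 0.241). SLC7A11, the cystine importer, was at 124 and 123 CPM in R175H and 107 and 104 CPM in R273H (-0.23 ± 0.05, not called in the fit of all 8 libraries), and here R248Q, at 129 and 120.3 CPM, lay with R175H. Of 20 cytosolic tRNA synthetases 4 were lower and 0 higher, against 6.59% and 6.26% of all genes tested. The call of DARS, for aspartate (-0.32 ± 0.05), was kept under every alternative.

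The ATF4 motif TGATGNAA, read on both strands, was in the 250 bases before the start of 3 of the 18 called members with a promoter in the table (16.7%), against 1.38% of the tested genes' promoters. It is shown for ASNS in the 100 bases before its start, in GRCh38.p14 from RefSeq, because this element is a well-known ATF4 site. Here too no share was computed for members that were not called, so the excess does not bear on the difference between the mutants.
ASNS, chr7:97872409-97872508, minus strand: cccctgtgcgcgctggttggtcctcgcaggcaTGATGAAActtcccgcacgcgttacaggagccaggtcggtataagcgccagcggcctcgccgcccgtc

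Sterol synthesis was lower in R273H in 11 of 26 tested genes and higher in 0, with a median of -0.11. The 11 were 7 with DESeq2 and 6 in the fit of all 8 libraries. HMGCS1, which makes the precursor of mevalonate, was at 363 and 357 CPM in R175H and 278 and 277 CPM in R273H (-0.38 ± 0.04, adjusted p = 2.26e-11). INSIG1, which holds SREBP in the endoplasmic reticulum, was at 294 and 290.2 against 222 and 223 CPM (-0.39 ± 0.04). The groups were apart in both genes. SCD, the stearoyl-CoA desaturase, was at 4168 and 4096 CPM in R175H and 3204 and 3149 CPM in R273H (-0.38 ± 0.03), and GFP was lower still at 2569 and 2835 CPM. In all, 4 of 11 genes of fatty acid synthesis were lower, with 2 of them called in the fit of all 8 libraries, by DESeq2 and without R273H replicate 2. The SREBP element TCACNCCAC was in 0 of the 8 called sterol genes' promoters in the table, against 0.816% of the tested genes' promoters. With so rare a match and so few promoters a count of 0 is likely at that share as well, so nothing follows from it.

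Heat shock chaperones were higher in R273H than in R175H. Of 27 tested 17 were higher and 0 lower, with a median of 0.22, and 10 of the 17 were called under every alternative with the same threshold. Both R273H libraries lay above both R175H libraries in 22 of the 27, against 25.4% of all genes tested. DESeq2 called 11 and the fit of all 8 libraries 10. HSPA8, the constitutive HSP70, was at 1721 and 1737 CPM in R175H and 2326 and 2372 CPM in R273H (0.44 ± 0.03, adjusted p = 1.34e-17). DNAJA1, one of its co-chaperones, was at 192 and 204 against 269 and 266 CPM (0.43 ± 0.04). HSPH1, the exchange factor HSP110, was at 122 and 108 against 158 and 158 CPM (0.46 ± 0.05). No library of one group reached the other in these genes, and the GFP libraries were the highest, at 2719 and 2605 CPM for HSPA8. HSP90AA1, the inducible HSP90, differed by 0.28 ± 0.03 and its co-chaperone STIP1 by 0.33 ± 0.04. HSPA1B, an inducible HSP70, was at 31.2 and 36.3 against 51.4 and 51.6 CPM (0.60 ± 0.08), but it shares nearly all of its sequence with HSPA1A (0.77 ± 0.33, not called), so reads may be split between these copies. HSP90AB1, the constitutive HSP90 (0.03 ± 0.03), HSPD1 (0.08 ± 0.03) and HSF1 itself (-0.06 ± 0.06) were not called.

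The heat shock element GAANNTTC was in the 250 bases before the start of 6 of the 15 called chaperone genes with a promoter in the table (40.0%), against 3.92% of the tested genes' promoters. It is shown for HSPA8, given above, and for CHORDC1, an HSP90 partner that differed by 0.43 ± 0.09, in which 2 matches lie side by side. The windows are again the 100 bases before the start in GRCh38.p14 from RefSeq. No share was computed for chaperone genes that were not called, so this excess does not bear on the difference between the mutants either.
HSPA8, chr11:123062137-123062236, minus strand: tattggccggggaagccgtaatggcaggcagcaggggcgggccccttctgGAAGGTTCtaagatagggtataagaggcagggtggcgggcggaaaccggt
CHORDC1, chr11:90223050-90223149, minus strand: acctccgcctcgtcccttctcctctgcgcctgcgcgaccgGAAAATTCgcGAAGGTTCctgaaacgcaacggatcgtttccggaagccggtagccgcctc

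Other protein folding genes were higher by less. Among 24 genes of the endoplasmic reticulum chaperones and unfolded protein response 9 were higher and 1, EDEM1 (-0.30 ± 0.08), was lower, with a median of 0.13. The shares over all genes tested, for this and the lists that follow, were 6.26% higher and 6.59% lower. HSPA5, the lumenal HSP70 BiP, was at 447 and 443 CPM in R175H and 571 and 571 CPM in R273H (0.36 ± 0.04, adjusted p = 6.76e-12). PDIA4, a disulphide isomerase, was at 418 and 444 against 511 and 528 CPM (0.27 ± 0.04), and MANF, a secreted stress protein, at 41.0 and 41.6 against 53.5 and 56.3 CPM (0.41 ± 0.08). These pairs were apart, and in the fit of all 8 libraries 4 genes of this list were still called higher. Of the 8 CCT subunits, the ring that folds actin and tubulin, 5 were higher by 0.12 to 0.15, with 2 called by DESeq2, 1 without R273H replicate 2 and 0 in the fit of all 8 libraries. Of 31 proteasome subunits 7 were higher and 0 lower, with 3 called without R273H replicate 2, 2 by DESeq2, 1 in the fit of all 8 libraries and 12 after removal of a trend with transcript length. PSMD12 (0.28 ± 0.06) kept its call in each of these.

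**Figure D3:**
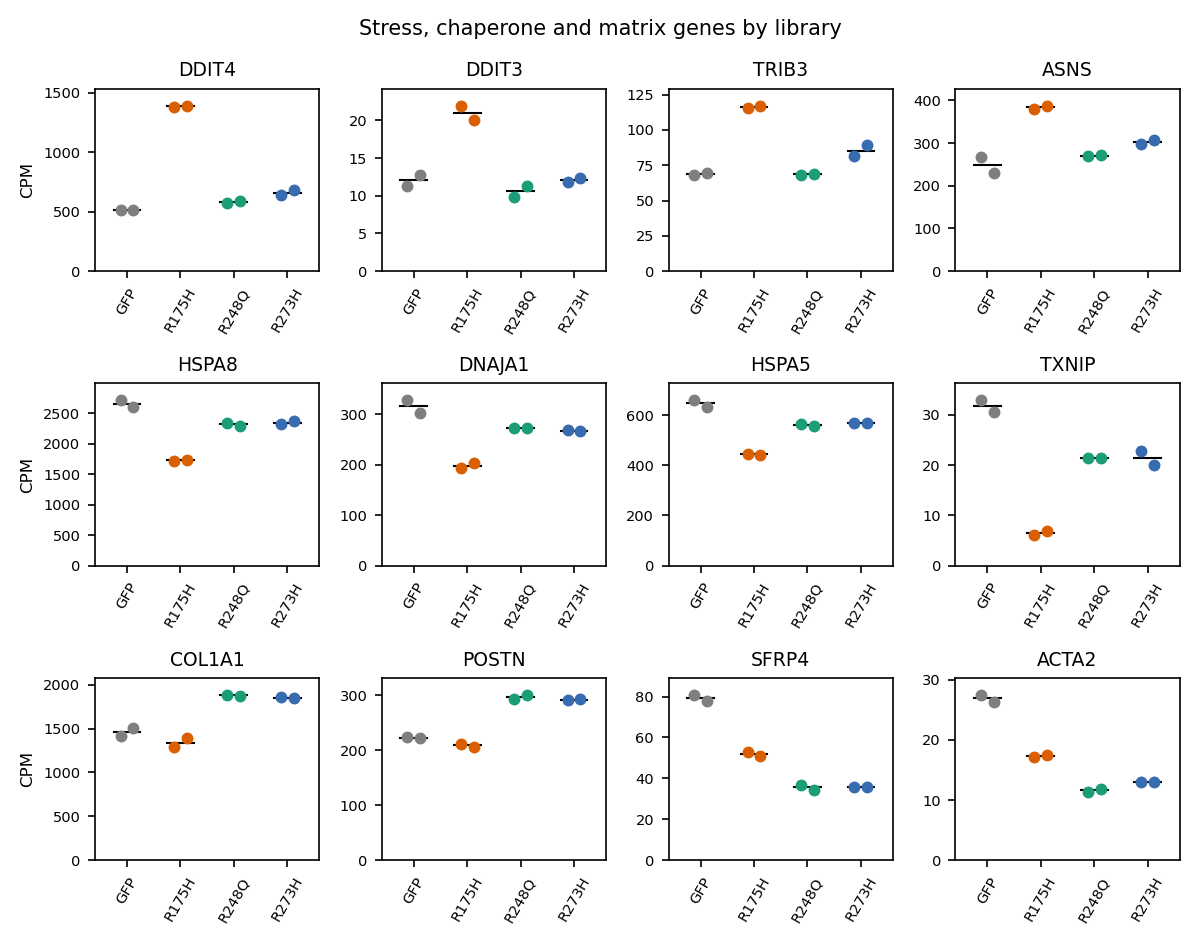
Level (CPM, from 0) of 12 genes of the stress response, chaperone and matrix groups in each of the 8 libraries; points are libraries and bars the mean of the 2. R175H stands apart from the other 3 groups for DDIT4, DDIT3, HSPA8, HSPA5 and TXNIP, whereas for SFRP4 and ACTA2 it lies between GFP and R273H.

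TXNIP had the largest rise apart from genes with few reads. It encodes an arrestin-like protein that limits glucose uptake and is turned on by the glucose-sensing factor MondoA. Its level was 6.19 and 6.95 CPM in R175H and 22.8 and 20.1 CPM in R273H (1.69 ± 0.15, adjusted p = 2.56e-14), with 21.4 CPM in both R248Q libraries and 33.0 and 30.6 CPM in GFP. R175H was thus the low group. ARRDC3, a related arrestin under the same factor, went the other way, with 20.2 and 24.9 CPM in R175H and 14.7 and 14.1 CPM in R273H (-0.66 ± 0.12). Both calls were kept under every alternative with the same threshold.

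Mitotic genes were slightly higher in R273H. Of 32 genes of G2 and mitosis 17 were higher and 0 lower, with a median of 0.15, against 6.26% and 6.59% of all genes tested. KIF23, a kinesin of the cleavage furrow, was at 68.8 and 77.6 CPM in R175H and 89.2 and 94.998 CPM in R273H (0.32 ± 0.06), and PLK1, the mitotic kinase, at 249.8 and 249.98 against 285 and 289.7 CPM (0.20 ± 0.04). The groups did not overlap in either gene, and these were the 2 genes of the list that were called under every alternative. MKI67, the proliferation marker, was at 231 and 213 against 274 and 244 CPM (0.22 ± 0.05), while R248Q was at 349 and 337 CPM and GFP at 164 and 223 CPM. The count was 8 with DESeq2, 10 without R175H replicate 2 and 2 in the fit of all 8 libraries. Among 41 genes of DNA replication and S phase 8 were higher and 3 lower, against the same 6.26% and 6.59%. ORC6, of the origin recognition complex, was higher (0.34 ± 0.08), as was the flap nuclease FEN1 (0.28 ± 0.04), and CDT1, which loads the replicative helicase, was lower (-0.31 ± 0.05). That list had 4 higher and 1 lower without R273H replicate 1, 7 and 1 without R175H replicate 1, and in the fit of all 8 libraries 2 and 1.

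Ribosome biogenesis genes were higher in 10 of 27 tested and lower in 1, with a median of 0.11. For this and the next lists, 6.26% of all genes tested were higher and 6.59% lower. NOP2, a nucleolar RNA methyltransferase, was at 118 and 131 CPM in R175H and 160.0 and 156 CPM in R273H (0.34 ± 0.05), and NOP16 at 73.5 and 76.1 against 94.2 and 97.8 CPM (0.36 ± 0.06). In the fit of all 8 libraries 4 genes of this list remained called higher. Ribosomal protein genes gave 6 lower and 0 higher of 49, by 0.09 to 0.14, but this rested on single libraries: 14 were lower and 0 higher without R175H replicate 1, 1 was lower and 4 higher without R175H replicate 2, 2 were lower and 1 higher without R273H replicate 1, and in the fit of all 8 libraries 0 genes were called. That list of 49 does not hold the whole family: outside it, for example, RPL13A was called lower (-0.29) and RPS26 higher (0.12). In a list of 38 mitochondrial ribosomal proteins 1 was lower, MRPS27 (-0.32 ± 0.04), and 0 higher. This list is partial too: outside it MRPL36 (0.26), MRPL49 (0.22), MRPL51 (0.18) and MRPS21 (0.16) were called higher and MRPL10 (-0.20) lower. The respiratory chain list is likewise partial, and outside it ATP5J2 (0.16) and ATP5G3 (0.12) were called higher. Of 44 nuclear-encoded respiratory chain subunits 1 was higher and 1 lower, with 5 and 0 without R175H replicate 2, 3 and 0 without R273H replicate 1 and 0 in the fit of all 8 libraries.

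Matrix and mesenchymal genes were split, with 8 higher and 8 lower of 31 tested. COL1A1, the alpha 1 chain of type I collagen, was at 1290 and 1387 CPM in R175H and 1860.5 and 1845 CPM in R273H (0.47 ± 0.03, adjusted p = 1.09e-17). POSTN, periostin, was at 212 and 206 against 290.3 and 292 CPM (0.48 ± 0.04). In both genes R248Q was level with R273H, at 1888 and 1872 CPM for COL1A1, and GFP was nearer to R175H, at 1421 and 1507 CPM. THBS1, the matrix protein thrombospondin, was higher at a low level, from 5.60 and 3.47 to 9.06 and 8.12 CPM (0.96 ± 0.20), and lost its call without R175H replicate 2. On the other side stood the collagen cross-linking genes LOX and LOXL2, which are counted in the HIF list as well. The protease MMP14 (-0.32 ± 0.04), the factor TWIST1 (-0.26 ± 0.04) and VIM (-0.17 ± 0.03) were also lower. Counts for the list were 5 and 6 without R175H replicate 2, 8 and 5 without R273H replicate 2 and 5 and 5 in the fit of all 8 libraries, and DESeq2 called 6 and 5.

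Genes of signalling and contraction differed singly and in no common direction. SFRP4, a Wnt antagonist, was at 53.05 and 50.8 CPM in R175H and 35.6 and 35.7 CPM in R273H (-0.54 ± 0.08), below GFP at 81.0 and 77.8 CPM. AXIN2, the feedback target of Wnt signalling, was at 197 and 199.7 against 157 and 160.2 CPM (-0.32 ± 0.04). ACTA2, smooth muscle actin, was at 17.2 and 17.5 against 13.0 and 13.1 CPM (-0.42 ± 0.13), with GFP at 27.6 and 26.3 CPM; its call was lost without any 1 library of R175H or R273H, with DESeq2 and in the fit of all 8 libraries. In these 3 genes R273H was below R175H without overlap. Of 16 TGF-beta and BMP genes 6 were higher and 2 lower, against 6.26% and 6.59% of all genes tested. These 8, all but BMP4 (0.61 ± 0.19), lay between -0.27 and 0.27. Without R175H replicate 2 the counts were 2 and 2, with DESeq2 1 and 1, and 0 of the 8 were called in the fit of all 8 libraries. AXL, a receptor kinase, differed by -0.40 ± 0.08, IGFBP5 by -0.38 ± 0.05, and EPHA2 by 0.45 ± 0.10. NFKB2, the p100 precursor, differed by -0.37 ± 0.06. The Wnt antagonist DKK2, described below, was higher on few reads.

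Known targets of the wild-type protein gave 1 higher and 6 lower of 32 tested, with a median of -0.08. Over all genes tested 6.26% were higher and 6.59% lower. CDKN1A, the cell cycle inhibitor p21, was at 9.73 and 10.2 CPM in R175H and 11.1 and 12.1 CPM in R273H (0.21 ± 0.15, adjusted p = 0.405). MDM2, the ubiquitin ligase of p53, was at 20.9 and 20.1 against 22.02 and 19.9 CPM (0.04 ± 0.11, adjusted p = 0.885). Neither was called. GDF15, a stress cytokine that is also an ATF4 target, was at 11.5 and 7.96 against 3.11 and 4.96 CPM (-1.23 ± 0.21). PLK2 was at 295 and 280.0 against 203 and 204 CPM (-0.50 ± 0.04), and AEN, an apoptosis nuclease and the single higher gene, at 36.8 and 37.6 against 54.9 and 51.3 CPM (0.51 ± 0.08). Without either R273H library, in turn, 3 genes of the list were called lower, with DESeq2 and in the fit of all 8 libraries 2.

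**Figure D4:**
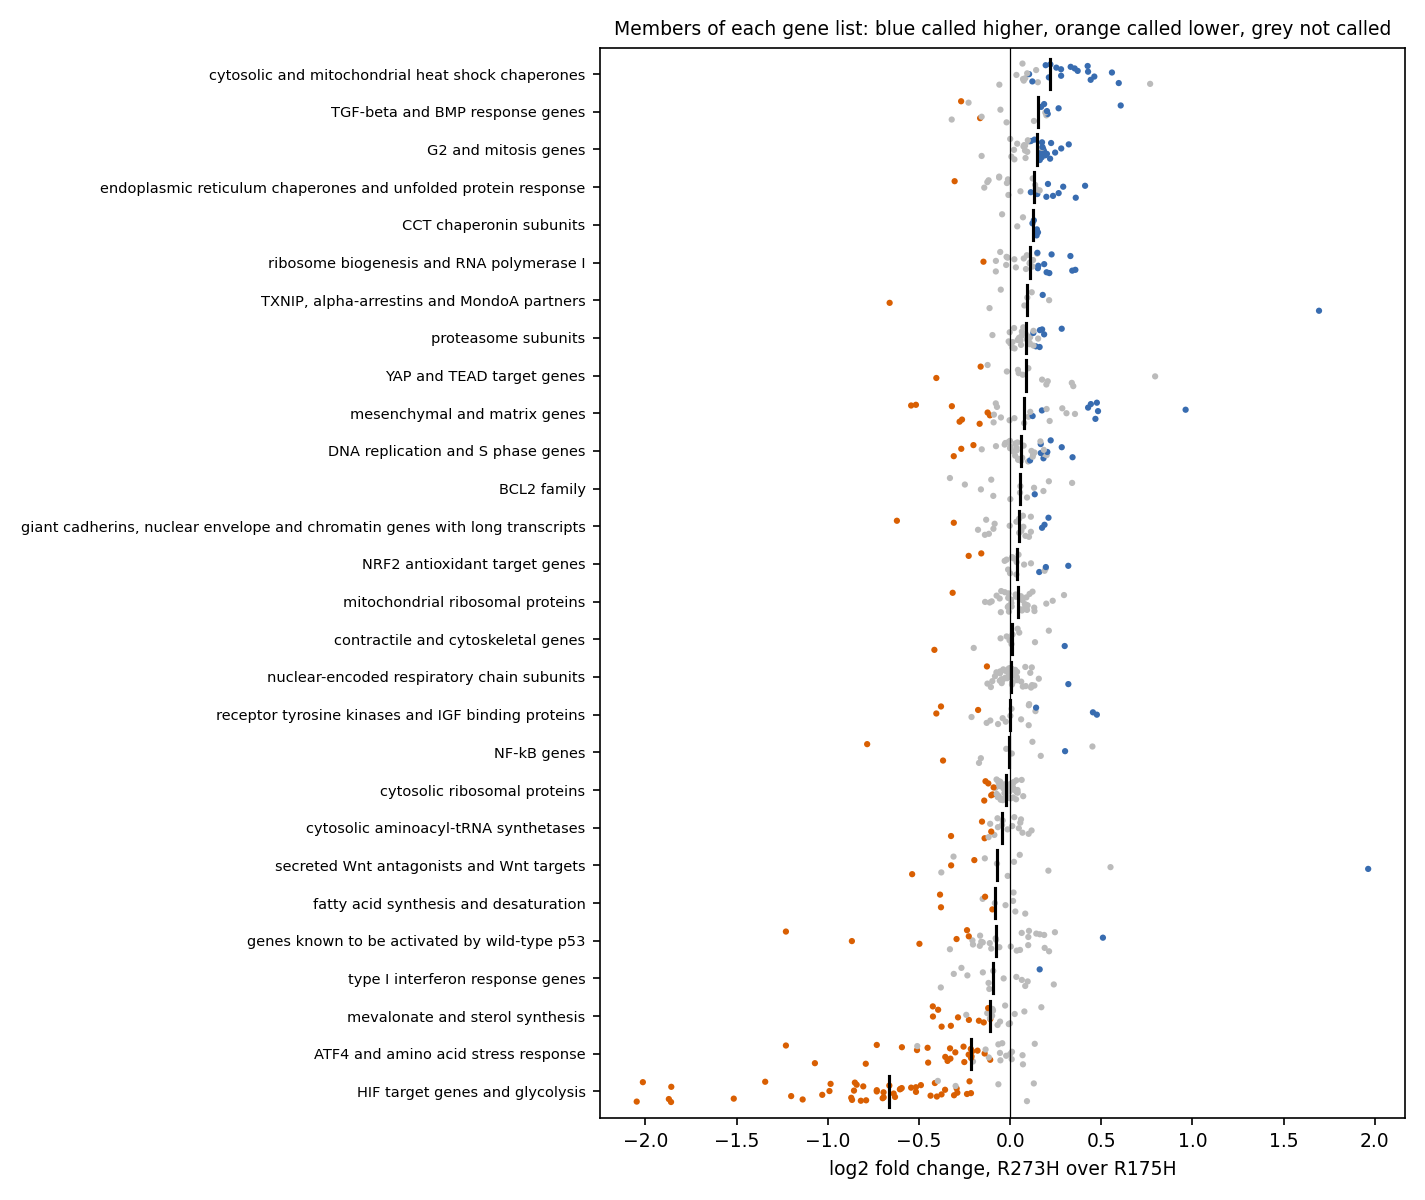
Log2 difference, R273H over R175H, of every tested gene in each list with at least 8 tested genes, lists in order of their median (black bar); blue points were called higher in R273H, orange points lower and grey points were not called. The HIF and glycolysis list has a median of -0.66 and the heat shock chaperones one of 0.22.

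Some of the largest rises rest on few reads. KRT8, keratin 8, had 3 and 3 counts in R175H and 14 and 29 in R273H, a depth-scaled ratio of 4.91 (95% exact interval 2.08 to 14.1, for counting error only), and its call was lost without R175H replicate 2 or without R273H replicate 2. SOX15 had 3 and 4 against 21 and 16 counts (ratio 3.62, interval 1.59 to 9.63), and DKK2, a secreted Wnt antagonist, 3 and 3 against 19 and 16 (ratio 4.0, interval 1.66 to 11.6). SOX15 and DKK2 both lost their calls without R175H replicate 1, R175H replicate 2 or R273H replicate 1. KRT8 and SOX15 were chosen among genes whose libraries did not overlap, so the lack of overlap adds nothing for them. The libraries of DKK2 did not overlap either. In each of these genes the R248Q and GFP libraries held more CPM than those of R175H. GRIK3, a glutamate receptor subunit, was at 3.39 and 3.25 CPM in R175H and 9.06 and 6.84 CPM in R273H (1.26 ± 0.22), and MFSD2A, a lipid transporter, at 5.16 and 4.59 against 9.24 and 9.06 CPM (0.92 ± 0.19). Neither call was lost in any of the alternative fits. The other rises among the 12 largest, TNNC1, AP1M2, MIR6126, TREX2, NLGN3 and CHRNA3, stayed below 4 CPM in all 4 libraries and lost their calls in at least 1 alternative fit. Likewise BEST4, TCP11L2, KIAA1244, RENBP, RAB39B and ISLR, among the 12 largest falls, stayed below 3 CPM. Of these BEST4 (-1.98 ± 0.43) was called in each alternative fit that gave it a value, DESeq2 giving none, and the other 5 lost their calls in at least 1.

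Further genes outside the lists were chosen for a low p after their values were seen. EIF4A2, a helicase of translation initiation, was at 310.5 and 321 CPM in R175H and 212 and 221 CPM in R273H (-0.55 ± 0.04, adjusted p = 1.09e-16). GBE1, the glycogen branching enzyme, was at 73.7 and 74.8 against 40.7 and 41.1 CPM (-0.86 ± 0.07), and APLN, the vascular peptide apelin, at 19.9 and 20.6 against 7.28 and 8.47 CPM (-1.36 ± 0.14). All 3 were high in R175H alone. SRSF2, a splicing factor, was higher in R273H, with 406 and 412 against 314 and 306 CPM (0.40 ± 0.04). MFGE8, which bridges dying cells to phagocytes, was at 50.5 and 51.3 CPM in R175H and 83.0 and 79.7 CPM in R273H (0.67 ± 0.07). FBXO32, a muscle-wasting ubiquitin ligase, was at 23.4 and 23.5 against 9.95 and 10.1 CPM (-1.23 ± 0.13).

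Across the 1661 called genes, R175H was usually the group that stood apart. R248Q, the other contact mutant, was nearer to R273H than to R175H in 1449 genes (87.2%, against 63.4% of all genes tested), and GFP was nearer to R273H in 1403 (84.5%, against 64.2%). With the R175H level set at 0 and the R273H level at 1, the median position was 0.93 for R248Q and 1.02 for GFP. Both R248Q and GFP were nearer to R273H in 1218 genes, only R248Q in 231 and only GFP in 185. All 46 called genes of the HIF list were nearer to R273H in both R248Q and GFP. These positions are a description, because the genes were chosen by the R273H and R175H libraries and their spread was estimated with those of R248Q.

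**Figure D5:**
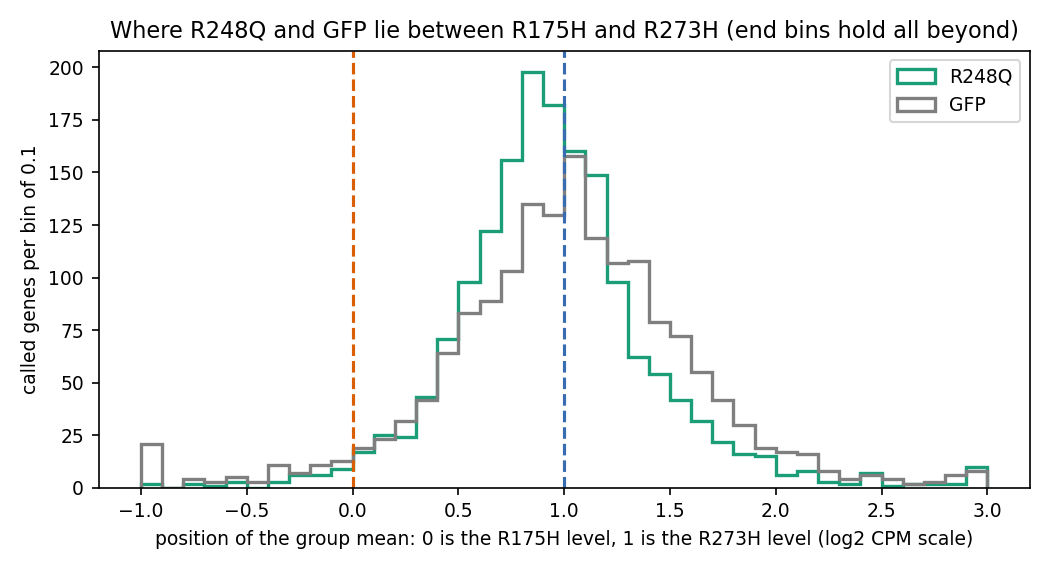
Histogram of the position of the R248Q and GFP group means on a scale where 0 is the R175H level and 1 the R273H level of the same gene (log2 CPM), for the 1661 called genes in bins of 0.1; the end bins hold all genes beyond them. Both curves are centred near 1, with medians of 0.93 and 1.02.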

How the data were processed

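Messenger RNA of HGC27 cells was sequenced after library preparation with a Kapa mRNA kit, per the labels' protocols. The authors deposited raw counts of reads per gene, as integers that add up to its own total for each library. STAR 2.5, bcl2fastq and the hg19 build are named in the submitters' processing notes. How reads were counted, with which annotation and on which strand, is not given in the sources used here, and overlapping genes and near-identical copies are uncertain.

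The tests used edgeR 4.0.16 under R 4.3.3. Its function filterByExpr (minimum count 10, minimum total 15) on the 4 libraries compared, left genes that held 99.9% of their counts. The quasi-likelihood model had 1 mean for each mutant and took the 6 mutant libraries after TMM scaling, with R248Q entering only the scaling and the spread (3 residual degrees of freedom, median prior 55.5, common biological coefficient of variation 2.26%). GFP was left out because its 2 libraries differed by a chi-square of 5.72 per degree of freedom, against 1.21 to 1.6 in the mutant pairs. Counting error alone would give about 1, so the mutant pairs varied little beyond it. The GFP spread was known when this choice was made. The p-values thus rest on a small spread, and the fit of all 8 libraries called fewer genes. SE is the absolute log2 difference divided by the square root of F. Calls used a Benjamini-Hochberg adjusted p below 0.05 over all genes tested. No length trend was removed from the reported values. Intervals of count ratios are exact conditional binomial ones at 95%.

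The comparison, the 34 gene lists and the alternatives were chosen with earlier results of these data known. Named genes were the 12 largest rises and 12 largest falls that were called, averaged at least 1 CPM and did not overlap, up to 4 genes of lowest p per list, and others that are said to be chosen afterwards or that illustrate a list. Results for 2 genes are not reported here. The alternatives changed the scaling (DESeq2's size factors or library size alone), the filter (any gene with 1 count, or 1 CPM on average), the tool (DESeq2 1.42.0 or limma-voom in limma 3.58.1) or the libraries (only the 4 compared, all 8, or 1 left out in turn). Further ones were a replicate block, removal of a trend with transcript length (GENCODE 29 lengths for 93.5% of tested genes), thinning to 6800463 counts and a log2 fold change of at least 1. On simulated data with 12833 genes, of which 199 were changed, the fit recovered 92% of 2-fold and 73% of 1.5-fold changes, with 8 false calls among 172. These data were drawn with the spread that the fit had estimated and held no change below 1.5-fold. Most called differences were smaller, and the figures do not cover them. Promoter sequences came from RefSeq, GRCh38.p14, matched by symbol, and no coordinate was carried over to hg19.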

Additional observations from a re-analysis of the deposited data

How the results depend on the processing

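None of the 134 named calls changed direction in an alternative that gave it a value (DESeq2 gave 117, thinning 130). Of these calls 68 had a value and were called in every alternative with the same threshold. DESeq2 called 277 higher and 301 lower genes, limma-voom 786 and 842, and the fit of all 8 libraries, which takes in the more variable GFP pair, called 186 and 294. A log2 fold change of at least 1 left 12 and 48 genes. Without any 1 library the counts were 565 to 624 higher and 600 to 729 lower, of which the lowest came without R273H replicate 2. DESeq2 and the fit of all 8 libraries called no gene beyond the 1661, and 578 and 480 of these were shared. With only the 4 libraries compared, and so without R248Q, 623 genes were higher and 731 lower. These 1354 were all among the 1661. Scaling changed little: 819 and 853 genes with DESeq2's size factors, 836 and 831 with library size alone. With a replicate block the counts were 983 and 1001. The labels do not say that a number pairs libraries, so the main fit held no block. Deviations of libraries with the same number were correlated at 0.07, 0.02 and 0.05 across genes, under 0.1. Differences of single libraries hold much counting error, so these values do not settle whether the numbers pair libraries. With GFP replicate 2 alone in place of the GFP mean, GFP was nearer to R273H in 87.2% of called genes. Thinning to the shallowest library lost 20 of 130 named calls, low and abundant genes alike. At 3 counts the floor of detection was 0.442 and 0.336 CPM in the R175H libraries, where KRT8 and DKK2 lie.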

Other observations

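R273H was the group that stood apart in a small number of genes. In 27 of the 1661 called genes both R248Q and GFP were nearer to R175H, 12 of them higher in R273H and 15 lower. That is 1.63% of the called genes, against 14.3% of all genes tested. L1CAM, a neural adhesion molecule, was at 16.0 and 17.2 CPM in R273H, against 23.4 and 22.7 CPM in R175H, 19.3 and 21.0 CPM in R248Q and 24.5 and 26.1 CPM in GFP (log2 difference -0.47 ± 0.11, adjusted p = 0.002, not called by DESeq2). FSTL1, a secreted follistatin-like protein, was at 219.96 and 214 CPM in R273H and at 229 to 253 CPM in the other 6 libraries (-0.20 ± 0.04). Among the higher genes TCF3, a basic helix-loop-helix factor, was at 906 and 917 CPM in R273H and at 802 to 862 CPM in the other libraries (0.14 ± 0.03). LRP2, the endocytic receptor megalin, was at 10.7 and 8.12 CPM in R273H against 16.5 and 12.8 CPM in R175H (-0.62 ± 0.15), and its call was lost with DESeq2, in the fit of all 8 libraries, without R175H replicate 1 and without R273H replicate 2. These genes were chosen after their values were seen, and whether R273H differs from R248Q or GFP in them was not tested.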
